A study of Mus musculus with 3 samples.

Results

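The regions described here are 3009 stretches of open chromatin that were called as peaks in both PDGFB libraries of a mouse single-cell ATAC-seq study and not in its Control library. Peaks of the 3 libraries on chromosomes 1 to 19, X and Y were merged where they overlapped by at least 1 bp, which gave 147229 regions. The members were thus chosen by peak calls made from the counts of these same libraries. A region is a member if it holds a PDGFB-NLS peak and a PDGFB-WT peak and no Control peak, and the 3009 members are 2.04% of all merged regions. Of the others, 47450 were called in all 3 libraries, 31427 in PDGFB-NLS only, 6015 in PDGFB-WT only, 44138 in PDGFB-NLS and Control, 732 in PDGFB-WT and Control, and 14458 in Control only.

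There was 1 library for each group, namely overexpression of PDGFB-NLS, overexpression of PDGFB-WT, and Control. Glioma is given as the tissue of every library, Control included, and per the labels the tumours came from piggyBac in utero electroporation, a way of placing transgenes into the cells of the embryonic brain. The study's title speaks of mutant IDH, of PDGFB binding to chromatin and of chromosome instability. The labels do not spell out NLS, give no further allele or promoter, and do not say what the Control library was electroporated with or how many animals went into a library. With 1 library a group there is no test between groups. Intervals of ratios and folds given below cover counting error only. Intervals of medians and of shares are taken over regions, which are not replicates, and measure no spread between animals.

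In ATAC-seq the transposase Tn5 cuts DNA where chromatin is open, so counts mark promoters, enhancers and other accessible elements. Enhancers lie mostly away from gene starts and are open in fewer cell types than promoters are. PDGFB is a growth factor ligand of the receptors PDGFRA and PDGFRB, and PDGFRA is carried in the brain by oligodendrocyte precursor cells (OPCs), the dividing cells that give rise to myelinating oligodendrocytes.

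Members overlapped 95 promoters of 81 genes in the RefSeq promoter table of GRCm38.p6, where a promoter runs 250 bp upstream to 50 bp downstream of a gene start. The sequences of 4 of them are shown 5′ to 3′ on the gene's strand, with CG dinucleotides in capitals, because they stand for the kinds of member seen below. Naa50 and Atxn7 carry members with very high counts that were about as open in OPC-like as in other barcodes. Gfap carries a member that was high in clusters 3 and 6 of the PDGFB-NLS barcodes and clusters 3 and 4 of the PDGFB-WT barcodes. Rimbp2 carries one that was high in OPC-like barcodes, picked for showing after its values were seen. The Rimbp2 member in the gene body described below is another region. The promoters lie at chr16:44139541-44139840 on the plus strand (Naa50), chr14:14012241-14012540 on the plus strand (Atxn7), chr11:102897151-102897450 on the minus strand (Gfap) and chr5:128953437-128953736 on the minus strand (Rimbp2).
Naa50: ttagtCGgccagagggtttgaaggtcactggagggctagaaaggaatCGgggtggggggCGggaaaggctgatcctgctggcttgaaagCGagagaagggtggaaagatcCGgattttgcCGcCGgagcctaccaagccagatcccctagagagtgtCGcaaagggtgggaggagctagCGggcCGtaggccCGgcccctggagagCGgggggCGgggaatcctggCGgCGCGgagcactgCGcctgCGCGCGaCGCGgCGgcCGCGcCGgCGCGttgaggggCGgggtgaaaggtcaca
Atxn7: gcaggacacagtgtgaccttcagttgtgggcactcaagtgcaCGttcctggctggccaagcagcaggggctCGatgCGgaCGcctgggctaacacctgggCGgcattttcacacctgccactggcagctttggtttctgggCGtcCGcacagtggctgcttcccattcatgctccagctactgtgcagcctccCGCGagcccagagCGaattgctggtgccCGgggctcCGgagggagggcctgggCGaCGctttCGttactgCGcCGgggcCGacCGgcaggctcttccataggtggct
Gfap: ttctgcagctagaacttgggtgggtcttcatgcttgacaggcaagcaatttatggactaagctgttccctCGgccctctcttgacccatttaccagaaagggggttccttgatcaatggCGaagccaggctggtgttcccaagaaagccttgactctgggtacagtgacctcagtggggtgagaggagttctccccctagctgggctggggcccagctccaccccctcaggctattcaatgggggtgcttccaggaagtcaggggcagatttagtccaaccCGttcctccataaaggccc
Rimbp2: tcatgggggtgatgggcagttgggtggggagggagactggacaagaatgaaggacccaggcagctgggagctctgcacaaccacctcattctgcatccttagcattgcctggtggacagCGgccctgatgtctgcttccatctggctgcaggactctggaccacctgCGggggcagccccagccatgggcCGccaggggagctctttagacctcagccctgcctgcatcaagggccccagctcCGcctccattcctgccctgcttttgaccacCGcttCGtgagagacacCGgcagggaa
Naa50, which encodes an N-terminal acetyltransferase, has 29 CG dinucleotides in these 300 bases and a GC content of 67.3%. Atxn7, which encodes a subunit of the SAGA histone acetyltransferase complex, has 19 and 64.7%. The CG dinucleotides are far sparser in the promoters of Rimbp2, a presynaptic active zone protein, with 7, and of Gfap, the intermediate filament of astrocytes, with 3. Over the 95 promoters that overlap a member the median was 11 CG dinucleotides and 56.7% GC, against 22 and 62.0% in the 11783 promoters that overlap a region called in all 3 libraries, and 13 and 56.3% in all 21263 promoters.

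Among the promoter motifs searched on both strands, the SP/KLF letters GGGCGG were present in 40% of promoters that overlap a member, in 67.9% of those that overlap a region of all 3 libraries and in 46.2% of all promoters. The ETS letters CCGGAAG were present in 2.11%, 18.6% and 11.6% of the same 3 sets. The AP-1 letters TGANTCA were present in 12.6%, 4.22% and 6.99%, which are 12 promoters among the members'. In the 7395 promoters that overlap no region the AP-1 letters were present in 11.0%, so a share of this size was not particular to members. None of these 3 motifs contains another, and a match describes these letters only. The other motifs searched are not reported here.

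A member on chromosome 2, chr2:94241359-94242299, covers the hairpins of Mir129-2 and of its antisense partner Mir129b. It is shown because it holds microRNA genes in full. The mature sequences, from RefSeq with the seed (bases 2 to 8) in capitals, are given here.
mmu-miR-129-5p: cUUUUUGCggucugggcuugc
mmu-miR-129-2-3p: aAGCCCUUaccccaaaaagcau
mmu-miR-129b-5p: gCUUUUUGggguaagggcuucc
mmu-miR-129b-3p: cAAGCCCAgaccgcaaaaagauu
None of the 4 seeds equals another. The region had 97 counts in PDGFB-NLS and 47 in PDGFB-WT. Its level in OPC-like barcodes was 2.99-fold that of other barcodes in PDGFB-NLS and 1.03-fold in PDGFB-WT. The nearest Control peak was 2593 bp away.

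The libraries differed in depth and in the kinds of nuclei they held. Their totals were 31177621 counts in 10996 barcodes for PDGFB-NLS, 7008951 counts in 7441 barcodes for PDGFB-WT and 31588784 counts in 2226 barcodes for Control, and the median barcode had 2767.5, 821 and 13054 counts in the same order. Of the barcodes, 118 occurred in both PDGFB-NLS and PDGFB-WT, 45 in PDGFB-NLS and Control, and 22 in PDGFB-WT and Control. Peaks came as a separate list for each library, with 127094, 57616 and 107627 of them used in that order, so a member has no Control count at all. Whether a member was closed in Control or only below the threshold of its peak caller cannot be told apart.

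The counts that stand behind the members were modest. A member had a median of 73 counts in PDGFB-NLS (quartiles 50 and 109, lowest 12, highest 2475) and of 39 in PDGFB-WT (quartiles 30 and 52, lowest 4, highest 574). Counts were also scaled per 1000000 counts in the 47450 regions called in all 3 libraries and are then called CPM. The median member had 2.97 CPM in PDGFB-NLS and 5.78 CPM in PDGFB-WT, while the median region called in all 3 libraries had 10.9 and 11.9 CPM. Together the members held 0.890% of the counts in PDGFB-NLS and 1.88% of those in PDGFB-WT, so they were a small share of the open chromatin of each library. Their median width was 956 bp, against 967 bp for regions called in all 3 libraries.

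Members lay away from gene starts. Only 192 of 3009 (6.38%, 95% exact binomial interval 5.53 to 7.31) were within 1000 bp of the start of a protein-coding gene, 1532 (50.9%) were elsewhere in a gene body and 1285 (42.7%) were between genes. Of the regions called in all 3 libraries, 28.4% were at a gene start, 38.4% in a gene body and 33.2% between genes. The median distance to the nearest gene start was 44616 bp for members (quartiles 13755 and 122162 bp), against 12187.5 bp for regions called in all 3 libraries and 23035 bp for all merged regions. A distance over 50 kb was found for 47.2% of members, against 22.8% of the regions called in all 3 libraries. This share was 55.1% for regions of PDGFB-WT only and 40.5% for those of PDGFB-NLS only. For regions of PDGFB-WT and Control, PDGFB-NLS and Control, and Control only it was 35.2%, 30.2% and 32.8%. Most other call patterns also had a low share at gene starts. It was 12.3% for regions of PDGFB-WT and Control, 4.15% for regions of PDGFB-NLS only, 3.18% for those of PDGFB-WT only, 6.48% for those of PDGFB-NLS and Control and 4.59% for those of Control only.

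**Figure D1:**
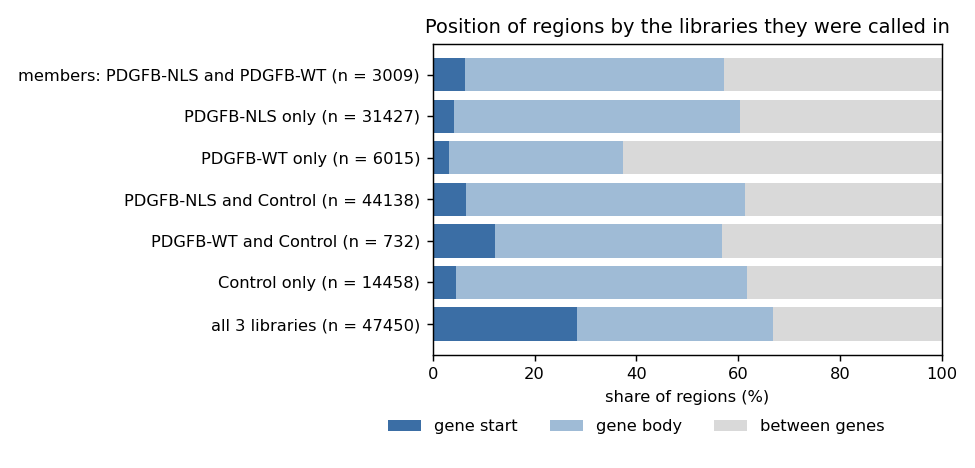
Position of merged regions by the libraries they were called in. Each bar splits the regions of 1 call pattern into those within 1000 bp of a gene start, elsewhere in a gene body, and between genes, as a share in percent, with the number of regions in the row name. Gene starts made up 6.38% of the 3009 members, against 28.4% of the 47450 regions called in all 3 libraries.

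Many of the most open members sat beside a Control peak. The median distance between a member and the nearest Control peak was 6253 bp (quartiles 1931 and 18186 bp), but 300 members (9.97%) lay within 500 bp of one. Of the 100 members with most CPM per kb, 52 were within 500 bp of a Control peak, and so were 6 of the top 8. The median level fell with distance. It was 5.45 CPM in PDGFB-NLS and 8.30 CPM in PDGFB-WT for the 63 members 1 to 100 bp from a Control peak, of which 31.7% were at gene starts. It was 2.24 CPM in PDGFB-NLS and 5.19 CPM in PDGFB-WT for the 315 members over 50000 bp away, of which 4.76% were at gene starts. Just across the border of the rule, the 5 regions called in all 3 libraries whose PDGFB and Control peaks overlapped by at most 100 bp had medians of 5.05 CPM in PDGFB-NLS, 9.48 CPM in PDGFB-WT and 1.67 CPM in Control.

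The 8 members with most CPM per kb were about as open in OPC-like as in other barcodes, or less, with folds of 0.704 to 1.10 in PDGFB-NLS and 0.450 to 1.13 in PDGFB-WT. The member at Naa50, chr16:44139012-44139988, had 2475 counts in PDGFB-NLS and 548 in PDGFB-WT, or 100.7 and 81.2 CPM, and ended 382 bp from a Control peak. The member at the start of Agbl5, a carboxypeptidase that trims glutamate from tubulin, is chr5:30887868-30888622 and had 1805 counts in PDGFB-NLS and 574 in PDGFB-WT, or 73.5 and 85.1 CPM, 66 bp from a Control peak. The member at Atxn7, chr14:14012420-14013334, had 1486 counts in PDGFB-NLS and 354 in PDGFB-WT, or 60.5 and 52.5 CPM, with the nearest Control peak 16026 bp away. All 3 stood far above the median member. The others were at Smarcc2 (a subunit of the BAF chromatin remodeller, 47 bp from a Control peak), near BC035044 (368 bp), near Bad (a pro-apoptotic BH3 protein, 63 bp), in Foxp1 (a forkhead transcription factor, 903 bp) and at Galnt7 (an enzyme of O-glycosylation, 186 bp). Their levels ran over 18.4 to 33.9 CPM in PDGFB-NLS and 22.2 to 31.9 CPM in PDGFB-WT. The member at Smarcc2 also overlaps Mir8105. The fourth promoter member by counts was at Zbtb4, a zinc finger repressor that binds methylated DNA, with 624 counts in PDGFB-NLS and 146 in PDGFB-WT.

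Relative to the shared regions, members were lower in PDGFB-NLS than in PDGFB-WT. Per 1000000 counts in the regions of all 3 libraries, members took 11292 counts in PDGFB-NLS and 19514 in PDGFB-WT, a ratio of 0.579 (interval 0.573 to 0.584). Of the 3009 members, 2237 had at least 30 counts in each library, and 772 had fewer in at least 1 of them (142 in PDGFB-NLS, 735 in PDGFB-WT). Over the 2237, the median log2 ratio of PDGFB-NLS over PDGFB-WT was -0.998 (interval -1.03 to -0.97, quartiles -1.40 and -0.56), against -0.09 for regions called in all 3 libraries. A fall of over 2-fold was seen in 1118 members (49.98%), where 11.0% of all regions called in both PDGFB libraries passed that mark. A rise of over 2-fold was seen in 4 members (0.179%), where the background was 1.18%. With at least 100 counts in each library the median was -0.45 and 25.4% of members were lower by over 2-fold. The rule bears on this ratio, since a member had to be called in the PDGFB-WT library, whose total was the lowest, and the part of this in the ratio was not tested. Across regions, the CPM of PDGFB-NLS and PDGFB-WT had a Spearman rho of 0.632 over the 3009 members and 0.883 over the regions of all 3 libraries, whose points share the same libraries.

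**Figure D2:**
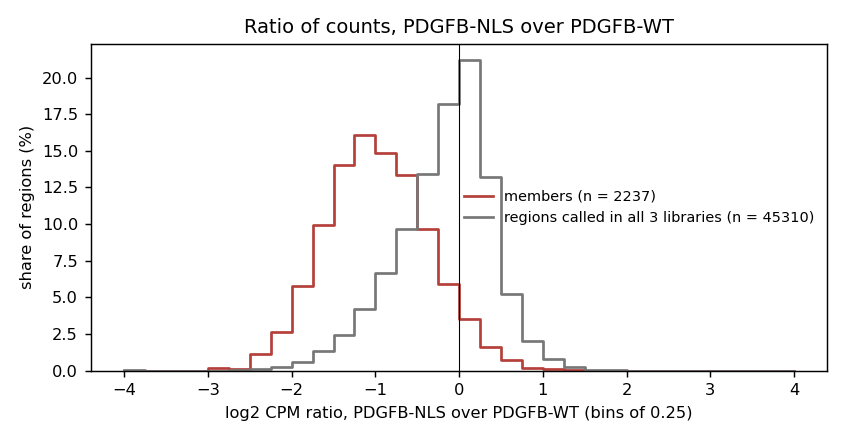
Distribution of the log2 CPM ratio of PDGFB-NLS over PDGFB-WT, in bins of 0.25, for 2237 members and for 45310 regions called in all 3 libraries, each with at least 30 counts in both libraries. The y axis is the share of regions in percent. The members centre on -0.998 and the regions of all 3 libraries on -0.09.

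The members with the highest ratio included gene starts. The member at the start of Parp10, a mono-ADP-ribosyltransferase, had 658 counts in PDGFB-NLS and 73 in PDGFB-WT, or 26.8 and 10.8 CPM, a log2 ratio of 1.31 (0.85 to 1.80). Members in Cd247, which encodes a chain of the T cell receptor complex, at the start of Sema4c, a semaphorin, and in Nhej1, a factor of DNA end joining, had log2 ratios of 1.23, 1.21 and 0.99. The Nhej1 member was also 2.75-fold higher in OPC-like than in other barcodes of PDGFB-NLS and 1.60-fold higher in those of PDGFB-WT.

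The 5 members with the lowest ratio were high in OPC-like barcodes or in the pooled barcodes of clusters 3 and 6 (PDGFB-NLS) and 3 and 4 (PDGFB-WT). The member in Rimbp2, chr5:128860684-128861659, lay 91827 bp from a gene start and is not the member at the promoter shown above. It had 30 counts in PDGFB-NLS and 62 in PDGFB-WT, or 1.22 and 9.19 CPM, a log2 ratio of -2.91 (-3.91 to -1.98). The member in Lrfn2, a synaptic adhesion protein, had 50 counts in PDGFB-NLS and 98 in PDGFB-WT, with a log2 ratio of -2.83 (-3.56 to -2.14). Both were higher in OPC-like barcodes than in others, by 15.2-fold in PDGFB-NLS and 4.0-fold in PDGFB-WT for Rimbp2 and by 10.7-fold and 5.79-fold for Lrfn2. The other 3, in Sptssb (serine palmitoyltransferase small subunit), near Lpin1 (a phosphatidate phosphatase) and near Pdk4 (a pyruvate dehydrogenase kinase), had log2 ratios of -2.82, -2.77 and -2.76. Those 3 were high in these pooled clusters, at 60.4-fold, 3.66-fold and 23.8-fold in PDGFB-NLS and 9.17-fold, 2.49-fold and 7.14-fold in PDGFB-WT. The PDGFB-NLS intervals for Sptssb and Pdk4 were wide, at 9.46 to 2523 and 5.38 to 217. Only 2 of 35 and 4 of 30 counts lay outside the pooled clusters there.

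Barcodes were clustered in each library without the members' peaks, and clusters were named from counts at marker genes. The OPC-like cluster held 1476 of 10996 barcodes in PDGFB-NLS (13.4%), 2012 of 7441 in PDGFB-WT (27.0%) and 57 of 2226 in Control (2.56%). It was above the other barcodes at 16 of 18 OPC markers measured in PDGFB-NLS, 17 of 18 in PDGFB-WT and 16 of 17 in Control. Its share of the counts in regions called in all 3 libraries was 15.3% in PDGFB-NLS, 31.2% in PDGFB-WT and 2.47% in Control. The other named clusters in PDGFB-NLS were microglia or macrophage-like (2850 barcodes), oligodendrocyte-like (2163), astrocyte-like (clusters 3 and 6, 1966 and 914), endothelial-like (1176) and inhibitory neuron-like (451). In PDGFB-WT they were microglia or macrophage-like (2340) and astrocyte-like (clusters 3 and 4, 1297 and 642), beside the unnamed clusters 5 and 6 (606 and 544). No oligodendrocyte-like cluster was named in PDGFB-WT, whose OPC-like cluster had Gjc3 of the oligodendrocyte list among its top 10 genes. With at least 1000 counts per barcode, an oligodendrocyte-like cluster of 144 barcodes was named in PDGFB-WT. None of the astrocyte-like clusters of the PDGFB libraries had a marker of its own list among its top 10 genes, and PDGFB-WT cluster 3 had the neuronal Fezf2 there, so these clusters are compared by number only. Clusters 3 and 6 of PDGFB-NLS were pooled, as were clusters 3 and 4 of PDGFB-WT, and are called the pooled clusters below, with no statement that they hold the same cells in the 2 libraries.

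Most barcodes carried some members, and OPC-like barcodes carried the most. At least 1 member had a count in 97.9% of barcodes in PDGFB-NLS and in 93.8% of those in PDGFB-WT. The median OPC-like barcode had counts in 32 members in PDGFB-NLS and 13 in PDGFB-WT, while the median microglia or macrophage-like barcode had them in 5 and 2. The median depth of OPC-like barcodes was 3164.5 counts in PDGFB-NLS and 999.5 in PDGFB-WT, while that of microglia or macrophage-like barcodes was 3427.5 and 845. OPC-like barcodes thus held 36.4% of the member counts in PDGFB-NLS and 45.5% in PDGFB-WT, with 15.6% and 31.3% of all counts.

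Scaled by depth, members were most open in OPC-like barcodes in PDGFB-NLS and in the unnamed clusters in PDGFB-WT. In PDGFB-NLS, members took 26818 counts per 1000000 counts in regions of all 3 libraries in OPC-like barcodes, 17931 in inhibitory neuron-like barcodes, 16049 in cluster 6, 10702 in oligodendrocyte-like barcodes, 10454 in cluster 3, 4640 in endothelial-like barcodes and 4164 in microglia or macrophage-like barcodes. In PDGFB-WT they took 28410 in OPC-like barcodes, 20071 in cluster 4, 19234 in cluster 3 and 6304 in microglia or macrophage-like barcodes. The unnamed clusters 6 and 5 of PDGFB-WT took 39445 and 38337. High levels there were not particular to members. Regions of PDGFB-WT only took 83158 and 80754 in clusters 6 and 5, against 9342 in OPC-like barcodes. For regions of PDGFB-WT and Control these values were 11666 and 12286, against 3367. These unnamed barcodes had a median of only 422 and 354.5 counts, and their leading genes included Zfp978, Cldn34d and Chl1, which also led an unnamed cluster of Control. Their part in the result was not tested, but values without them are given below.

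**Figure D3:**
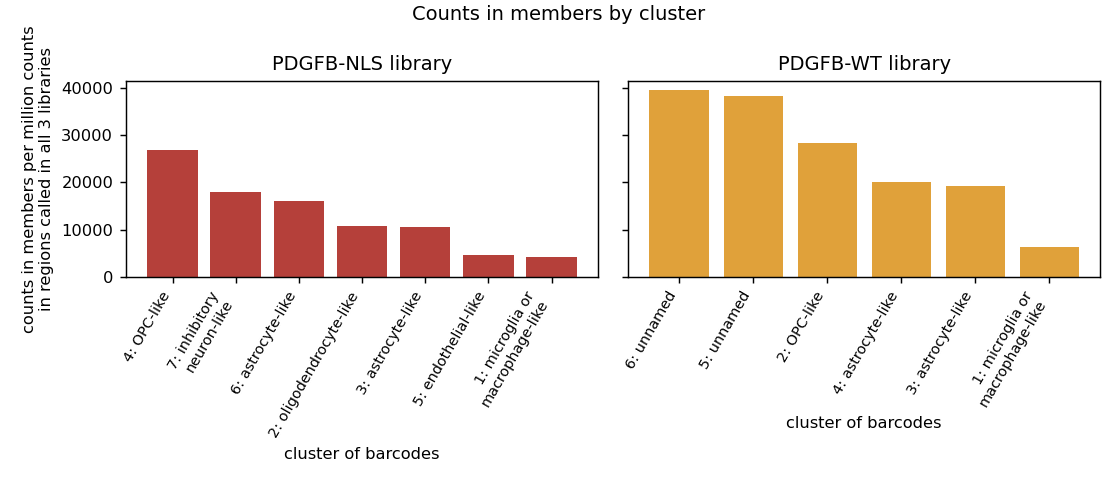
Counts in members per 1000000 counts in regions called in all 3 libraries, for each cluster of barcodes in the PDGFB-NLS library (left) and the PDGFB-WT library (right). The OPC-like clusters stand at 26818 and 28410 and the microglia or macrophage-like clusters at 4164 and 6304, with unnamed PDGFB-WT clusters of few counts at 39445 and 38337.

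Within the barcodes named OPC-like, members had close levels in the 2 PDGFB libraries, with no statement that these clusters hold the same cells. There the ratio of PDGFB-NLS over PDGFB-WT was 0.944 (0.931 to 0.957), whereas within microglia or macrophage-like barcodes it was 0.661 (0.643 to 0.679). Region by region, 659 of the 3009 members had at least 30 counts in OPC-like barcodes of each library, and their median log2 ratio was -0.18 (-0.21 to -0.13), against -0.03 for 20806 regions called in all 3 libraries. Of these 659, 35 (5.31%) were lower in PDGFB-NLS by over 2-fold, where the background was 2.25%, and 9 (1.37%) were higher, where it was 0.885%. The minimum of 30 counts keeps members that are high in OPC-like barcodes, so the 659 are not the members at large.

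As a set, members were higher in OPC-like than in other barcodes. The other barcodes were a different mix of clusters in each library, so folds of the 2 libraries here and below have different references. The fold was 3.16 (3.13 to 3.19) in PDGFB-NLS and 1.84 (1.81 to 1.86) in PDGFB-WT. It was 3.47 in PDGFB-NLS and 1.91 in PDGFB-WT for members over 500 bp from a Control peak, and 1.85 and 1.43 for those within 500 bp. With the unnamed clusters left out of the other barcodes, a choice made after seeing the data, the PDGFB-WT fold was 2.25. Regions of PDGFB-NLS only had a fold of 1.67 and those of PDGFB-NLS and Control one of 0.830 in PDGFB-NLS, and regions of PDGFB-WT only had one of 0.545 in PDGFB-WT. Members were lower in microglia or macrophage-like than in other barcodes, at 0.284-fold in PDGFB-NLS and 0.246-fold in PDGFB-WT. Because the rule asks for peaks in libraries with many OPC-like barcodes and none in a library with few, this set of regions and the makeup of the libraries cannot be told apart.

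Single members differed in the barcodes they were open in. In PDGFB-NLS, 1053 of 2237 members (47.1%) had their highest level in the OPC-like cluster, against 12.97% of the regions called in all 3 libraries. In PDGFB-WT the unnamed clusters of few counts led, with 661 members (29.5%) highest in cluster 5 and 614 (27.4%) in cluster 6, ahead of 530 (23.7%) in the OPC-like cluster. For the regions called in all 3 libraries these shares were 20.9%, 18.8% and 14.5%. Of the 2237 with at least 30 counts in each library, 1084 (48.5%) were over 2-fold higher in OPC-like than in other barcodes of both libraries, where 12.1% of all regions called in both libraries were. A further 233 (10.4%) were over 2-fold lower in both, where the background was 18.1%. The median fold was 3.39 in PDGFB-NLS and 2.07 in PDGFB-WT, while for regions called in all 3 libraries it was 0.953 and 0.9504. Across members the folds of the 2 libraries had a Spearman rho of 0.833, with 24 of 2237 members over 2-fold in opposite directions. Over all regions called in both PDGFB libraries the rho was 0.773, with 299 of 47547 in opposite directions. The share over 2-fold higher in both was 52 of 161 (32.3%) at gene starts, 556 of 1158 (48.0%) in gene bodies and 476 of 918 (51.9%) between genes.

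**Figure D4:**
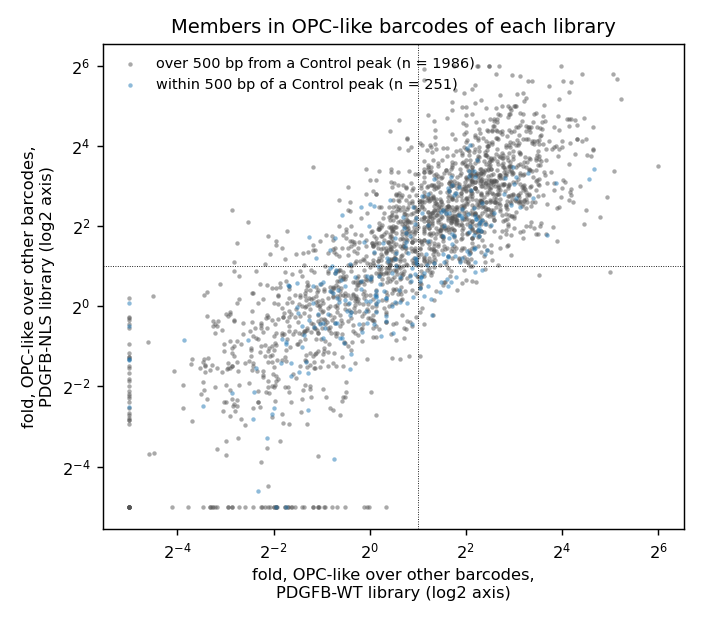
Each point is 1 of 2237 members, placed by its fold in OPC-like over other barcodes in PDGFB-WT (x axis) and PDGFB-NLS (y axis), both on log2 axes. Dotted lines mark 2-fold, colours split members over 500 bp (n = 1986) from those within 500 bp (n = 251) of a Control peak, and folds past the plotted range, among them folds of 0, are drawn at its edge. Of the points, 1084 lie beyond both dotted lines.

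Few members were open mainly in microglia or macrophage-like barcodes, and a larger group was open in the pooled clusters. Only 35 (1.56%) were over 2-fold higher in microglia or macrophage-like than in other barcodes of both libraries, against a background of 13.9%, and 1922 (85.9%) were over 2-fold lower, against 36.9%. The rule leaves out regions with a Control peak, and the microglia or macrophage-like cluster was the largest of Control (493 barcodes). It held 35.3% of Control's counts in regions called in all 3 libraries. These shares of members and the effect of the rule cannot be told apart. For the pooled clusters, 521 members (23.3%) were over 2-fold higher than in other barcodes of both libraries, against a background of 14.2%, and 647 (28.9%) were over 2-fold lower, against 20.6%.

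The members with the highest OPC-like folds in both libraries lay far from genes. The region chr6:11305874-11306781, whose nearest gene Ndufa4 was 593591 bp away, had 131 of 144 counts in OPC-like barcodes in PDGFB-NLS and 61 of 65 in PDGFB-WT, for folds of 55.8 (25.6 to 144) and 33.6 (8.54 to 289). The region chrX:38696583-38697547, 61440 bp from C1galt1c1, had folds of 51.2 and 35.2. The region chr8:79536950-79537874, 99841 bp from Gm51579, had folds of 36.0 and 37.4, and chrX:131489059-131489969, 1023225 bp from Diaph2, folds of 22.1 and 24.9. The last had the nearest Control peak 668272 bp away. Most of the intervals are wide, since only 3 to 16 counts lay outside OPC-like barcodes.

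Members with the highest microglia or macrophage-like folds included genes of blood cells. The member at Fermt3, which encodes the kindlin of blood cells, had 359 counts in PDGFB-NLS and 108 in PDGFB-WT, with folds of 24.9 and 10.1. The member 11628 bp from Ifnar1, a subunit of the type I interferon receptor, had 650 counts in PDGFB-NLS and 146 in PDGFB-WT, with folds of 29.8 (19.7 to 47.1) and 20.3 (9.78 to 48.7). Members in Stx8, a syntaxin of endosomes, and 24125 bp from Car1, a carbonic anhydrase, had folds of 33.2 and 58.0 in PDGFB-NLS and of 10.1 and 10.0 in PDGFB-WT. The PDGFB-NLS intervals were wide, at 10.4 to 169 and 9.61 to 2368, with 4 and 2 counts outside these barcodes.

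In the pooled clusters, the highest folds were in Maob and Ercc6l2 and at a distance from Reg3b and Nphp4. The member in Maob, a monoamine oxidase that astrocytes carry, had 72 counts in PDGFB-NLS and 31 in PDGFB-WT, with folds of 22.7 (9.32 to 66.5) and 22.2 (5.10 to 201). The member in Ercc6l2 had folds of 32.6 in PDGFB-NLS and 19.4 in PDGFB-WT. Those 120030 bp from Reg3b and 221542 bp from Nphp4 had 16.5 and 19.7 in PDGFB-NLS and 29.7 and 15.1 in PDGFB-WT. Their PDGFB-WT intervals were wide, at 7.47 to 258 and 4.43 to 79.5, with 4 and 6 counts outside the pooled clusters.

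Among receptors, Pdgfra had 2 members, both downstream of the gene on chromosome 5 (75151322 to 75198206). The first, chr5:75198267-75199267, begins 61 bp past the gene's end and had 101 counts in PDGFB-NLS and 54 in PDGFB-WT, or 4.11 and 8.0 CPM. The second, chr5:75223542-75224573, lies 25336 bp past it and had 183 counts in PDGFB-NLS and 107 in PDGFB-WT, or 7.45 and 15.9 CPM. Most of these counts came from OPC-like barcodes, with 70 and 147 of them in PDGFB-NLS and 46 and 87 in PDGFB-WT. Summed, the 2 members were 17.9-fold higher (12.1 to 27.2) in OPC-like than in other barcodes of PDGFB-NLS and 10.5-fold higher (5.996 to 19.3) in those of PDGFB-WT. The nearest Control peaks were 10392 and 12981 bp away.

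Other OPC genes had several members each. Cacng4, which encodes an auxiliary subunit of AMPA receptors, had 4 in its gene body, with 29.5 CPM in PDGFB-NLS and 55.7 CPM in PDGFB-WT, the highest sum among the genes named here that hold 4 or more. Each of the 4 was higher in OPC-like barcodes, by 8.74-fold to 20.9-fold in PDGFB-NLS and 5.79-fold to 10.1-fold in PDGFB-WT. Tnr, the matrix glycoprotein tenascin-R, had 4, with a summed fold of 13.3 (9.98 to 17.9) in PDGFB-NLS and 4.54 (2.97 to 7.03) in PDGFB-WT. The strongest of these, chr1:159587647-159588652, had 154 of 185 counts in OPC-like barcodes in PDGFB-NLS and 60 of 80 in PDGFB-WT. C1ql1, Lhfpl3, Scrg1, Matn4 and Neu4 had at least 1 member each, whereas Olig1, Olig2 and Sox10, the transcription factors that define the oligodendrocyte lineage, had none within 50 kb. The Matn4 member had OPC-like folds of 2.39 in PDGFB-NLS and 0.943 (0.260 to 2.88) in PDGFB-WT. Pdgfra, Cacng4, Tnr, Sox6 and Matn4 are on the OPC list that named the OPC-like cluster, with the members' peaks left out.

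Sox6, a SOXD transcription factor, held members that were open in different barcodes. Its members chr7:115666723-115667609 and chr7:115729906-115730844 were higher in OPC-like barcodes, by 11.5-fold and 13.5-fold in PDGFB-NLS and by 8.56-fold and 3.06-fold in PDGFB-WT. Its members chr7:115562909-115563749 and chr7:115596197-115597083 were instead higher in the pooled clusters, by 11.6-fold and 10.2-fold in PDGFB-NLS and by 4.76-fold and 7.85-fold in PDGFB-WT. Counts were small, 42 to 88 in PDGFB-WT. Its relative Sox5 also had 4 members, with a summed OPC-like fold of 4.21 in PDGFB-NLS and 2.29 in PDGFB-WT.

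Gfap had 3 members within 50 kb. The one at its promoter, chr11:102896756-102897621, had 241 counts in PDGFB-NLS and 86 in PDGFB-WT, or 9.81 and 12.7 CPM, and ended 504 bp from a Control peak. It was 12.1-fold higher (8.04 to 18.6) in the pooled clusters 3 and 6 of PDGFB-NLS and 8.39-fold higher (4.24 to 17.8) in the pooled clusters 3 and 4 of PDGFB-WT. A second, inside the neighbouring Eftud2, was also high there, and the third, inside Kif18b, was higher in OPC-like barcodes, by 4.45-fold in PDGFB-NLS and 1.93-fold in PDGFB-WT. Aldh1l1, the folate enzyme used to mark astrocytes, had 2 members with summed folds in the pooled clusters of 6.55 (PDGFB-NLS) and 2.88 (PDGFB-WT). Slc4a4, a bicarbonate transporter of astrocytes, had 2 members whose summed folds in the pooled clusters were 1.40 (PDGFB-NLS) and 0.861 (PDGFB-WT) and whose OPC-like folds were 4.63 and 2.77.

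**Figure D5:**
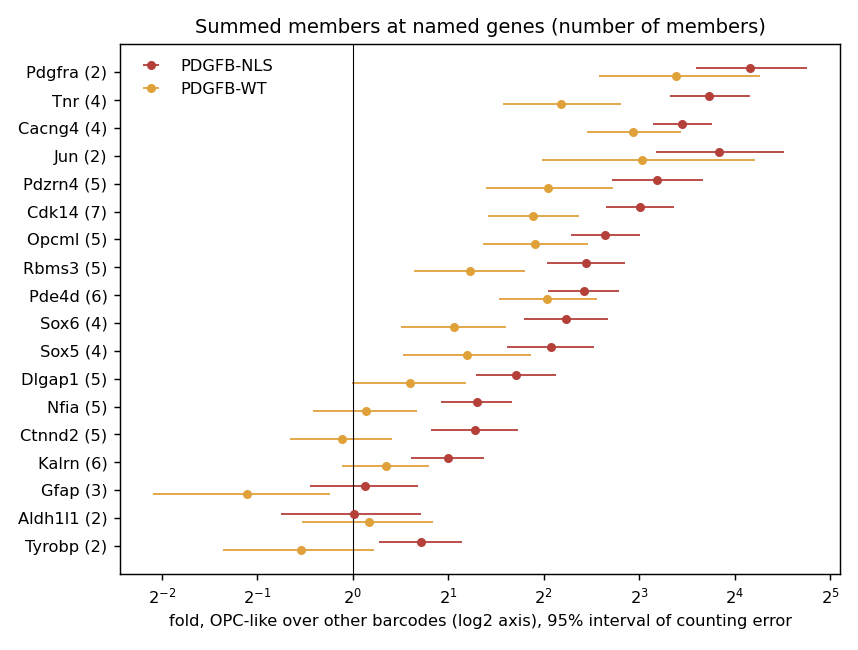
Fold of summed member counts in OPC-like over other barcodes, on a log2 axis, at 18 named genes, with the number of members within 50 kb of each gene in brackets. Points are the PDGFB-NLS and PDGFB-WT libraries and bars are 95% intervals of counting error. Pdgfra has folds of 17.9 (PDGFB-NLS) and 10.5 (PDGFB-WT), and Gfap of 1.10 and 0.462.

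The genes with most members were long. In all, 3386 of 21887 protein-coding genes (15.5%) had at least 1 member in the gene body or within 50 kb of it. A member near a gene is not shown to act on it. The 33 genes with 4 or more had a median length of 540811 bp, against 17169 bp for all genes, so length moves with these counts. Cdk14, a cyclin-dependent kinase with a role in Wnt signalling, had most, with 7 members, 520 counts in PDGFB-NLS and 309 in PDGFB-WT, with OPC-like folds of 8.04 (6.27 to 10.3) and 3.71 (2.68 to 5.18). Pde4d, a cAMP phosphodiesterase, had 6 members with folds of 5.35 and 4.10, and Kalrn, a guanine exchange factor of synapses, had 6 with 2.0 and 1.27. Those with 5 were Pdzrn4 (9.11 and 4.14), the adhesion molecule Opcml (6.25 and 3.76), the RNA-binding Rbms3 (5.45 and 2.34), the neuron navigator Nav3 (4.17 and 1.95), the postsynaptic scaffold Dlgap1 (3.28 and 1.51), the gliogenic factor Nfia (2.46 and 1.10) and the delta-catenin Ctnnd2 (2.44 and 0.922), each with PDGFB-NLS first. Sema6d, a semaphorin, also had 5. Ctnnd2 was higher in the pooled clusters, with 4.14 for PDGFB-NLS and 2.08 for PDGFB-WT.

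Cell type lists are given against the 15.5% of all protein-coding genes. A member was within 50 kb of 9 of 18 OPC genes, 8 of 16 astrocyte genes, 6 of 12 excitatory neuron genes, 5 of 16 microglia or macrophage genes, 4 of 15 oligodendrocyte genes, 4 of 16 neural progenitor genes, 2 of 10 ependymal genes, 2 of 14 endothelial genes, 2 of 15 mural or fibroblast genes, 1 of 13 inhibitory neuron genes, 1 of 14 lymphocyte genes and 0 of 9 erythroid genes. The median lengths of the OPC and astrocyte genes were 21214.5 and 14232.5 bp, near that of all genes, while that of the excitatory neuron genes was 30758 bp. Several members near genes of one cell type were open in another. The 2 members at Tyrobp, an adaptor of microglial receptors, were near evenly open, with microglia or macrophage-like folds of 0.955 in PDGFB-NLS and 1.43 in PDGFB-WT, the nearer of them 29 bp from a Control peak. The member near Cx3cr1, the microglial fractalkine receptor, was 0.144-fold in microglia or macrophage-like barcodes of PDGFB-NLS and 0.130-fold in those of PDGFB-WT. In the pooled clusters it was 3.38-fold in PDGFB-NLS and 5.95-fold in PDGFB-WT. The 3 at Bcl11b and the 1 at Cux2, factors of cortical neurons, had OPC-like folds of 3.66 and 6.69 in PDGFB-NLS and of 3.86 and 15.7 in PDGFB-WT. The Cux2 interval in PDGFB-WT was 5.43 to 62.1, on 57 counts.

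The remaining named genes of the neural and vascular lists each had few members. At Dcx, a microtubule protein of migrating neuroblasts, the member was 3.992-fold higher in OPC-like barcodes of PDGFB-NLS and 7.39-fold higher in those of PDGFB-WT. At Adarb2, a marker of some inhibitory neurons, 3 members had folds of 5.67 and 3.67, and at Sox11, a SOXC factor of progenitors, 1 had folds of 3.46 and 2.43. Those of the smooth muscle genes Acta2 and Myh11 were higher in the pooled clusters, at 13.7 and 10.7 in PDGFB-NLS and at 12.5 and 9.08 in PDGFB-WT, on 38 and 59 counts in PDGFB-NLS and 25 and 53 in PDGFB-WT. The members at the endothelial genes Erg and Vwf had OPC-like folds of 2.77 and 3.46 in PDGFB-NLS and of 2.68 and 7.70 in PDGFB-WT. At the oligodendrocyte genes Cldn11, Mbp and Myrf the OPC-like folds were 1.70, 2.06 and 1.61 in PDGFB-NLS and 3.18, 1.06 and 0.677 in PDGFB-WT. The Myrf member was higher in the pooled clusters, by 3.45-fold in PDGFB-NLS and 3.75-fold in PDGFB-WT.

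Pathway lists held members at shares on both sides of the background. PDGF receptor signalling had them at 10 of 32 genes. The median length of the 32 genes was 31236 bp, against 17169 bp for all genes. Among the 10 were Pdgfra, the ligand Pdgfa, the adaptor Grb2, the kinase subunit Pik3ca, the phospholipase Plcg1 and the feedback inhibitors Spry2, Spry4 and Dusp6. Glial and progenitor transcription factors had them at 18 of 58 genes, among them Nfia, Nfib, Nfix, Sox4, Sox8, Tcf7l2 and Zeb1. Synapse genes had them at 11 of 30, with a median gene length of 97885.5 bp. The other counts were 5 of 19 p53 targets, 5 of 25 genes of chromosome segregation and the spindle checkpoint, 4 of 21 of hypoxia and glycolysis, 4 of 22 of the brain extracellular matrix, 2 of 12 AP-1 factors, 3 of 23 interferon response genes and 1 of 22 of cohesin and condensin.

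At AP-1 factors the members were OPC-like high in PDGFB-NLS. Jun had 2 members with OPC-like folds of 14.3 (9.07 to 23.0) in PDGFB-NLS and 8.19 (3.96 to 18.6) in PDGFB-WT, at 11210 and 13595 bp from a Control peak. Jund had 2 with folds of 4.04 in PDGFB-NLS and 1.11 in PDGFB-WT. Of the synapse genes, the member in Gria2, an AMPA receptor subunit, had folds of 8.44 in PDGFB-NLS and 14.3 in PDGFB-WT, while the 3 in Nrxn3, a presynaptic neurexin, had 4.91 and 2.28. The Gria2 interval in PDGFB-WT was 3.24 to 131, on 30 counts. The member in Gria1 had 2.03 and 1.97.

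Members at genes of chromosome segregation differed in where they were open. Incenp, the scaffold of the chromosomal passenger complex, had 1 with OPC-like folds of 6.22 (2.67 to 14.7) in PDGFB-NLS and 7.92 (1.98 to 45.5) in PDGFB-WT, on 51 and 23 counts. Aurkb, the kinase of that complex, had 1 that was higher in microglia or macrophage-like barcodes, by 1.85-fold in PDGFB-NLS and 5.23-fold in PDGFB-WT. The one near Bub1b, a spindle checkpoint kinase, had 73 counts in PDGFB-NLS and 27 in PDGFB-WT, with microglia or macrophage-like folds of 23.5 and 2.32. Nipbl, the cohesin loader, had 1 with OPC-like folds of 0.777 and 1.26.

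Regions that all 3 libraries share allow a comparison with Control in the neighbourhood of members. Of 45231 shared regions with at least 30 counts in every library, 1806 lay within 10 kb of a member. Their median log2 ratio over Control was 0.09 in PDGFB-NLS and 0.31 in PDGFB-WT, against 0.04 and 0.13 for all 45231. A rise of over 2-fold was seen in 9.19% of them in PDGFB-NLS, where the background was 6.32%, and in 26.0% in PDGFB-WT, where it was 19%. A fall of over 2-fold was rare near members, in 0.720% of these regions in PDGFB-NLS, where the background was 0.696%, and in 1.94% in PDGFB-WT, where it was 2.29%. Position moves with these values. Over 1000 bp from a gene start, the 1398 shared regions near a member had medians of 0.15 (PDGFB-NLS) and 0.49 (PDGFB-WT), against 0.08 and 0.35 for all 31894 shared regions there. The 49 shared regions with 2 or more members within 10 kb had medians of -0.13 (-0.27 to 0.07) in PDGFB-NLS and 0.17 (-0.13 to 0.85) in PDGFB-WT. Both comparisons use the same Control library. Near the members that were OPC-like high in both libraries (545 shared regions) the medians were 0.21 in PDGFB-NLS and 0.47 in PDGFB-WT. Near those that were OPC-like low in both (210) they were 0.01 and 0.30. The shared regions near OPC-like high members were themselves higher in OPC-like than in other barcodes in each library, by 1.22-fold in PDGFB-NLS, 1.20-fold in PDGFB-WT and 1.31-fold (1.27 to 1.35) in Control. The part of the larger share of OPC-like barcodes in these ratios was not tested.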

How the data were processed

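Single-cell ATAC-seq libraries of PDGFB-NLS, PDGFB-WT and Control were each deposited by the authors as a list of peaks and a matrix of raw, unnormalised counts of cut sites per peak and barcode, made with cellranger-atac 2.1.0 per the file headers. Cell Ranger 8 and the build mm10 are named in the submitters' processing notes. How peaks and cells were called is not given in the sources used here. The entry 2 made up 87.9% of nonzero counts in PDGFB-NLS, 89.4% in PDGFB-WT and 72.9% in Control, as when both ends of a fragment are counted.

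Barcodes with at least 200 counts were kept. Gene positions and sequences came from RefSeq tables of GRCm38.p6. A gene start was any start in the promoter table for 17492 genes, and either gene end for 4395 genes without an entry. Counts were scaled per 1000000 counts in regions called in all 3 libraries (CPM). Counts of regions past a fold, and regions named for their ratio or class fold, needed at least 30 counts per library. Members at named genes had no minimum. Exact 95% intervals of ratios and folds (Clopper-Pearson on the conditional binomial) take their width from fragments, (count + 1) // 2, and cover counting error only. Those of shares (exact binomial) and of medians (order statistics) are taken over regions, which are not replicates. PCR copies and cut sites of a fragment are not independent.

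Within each library, peaks open in at least 1% of barcodes, members left out, entered TF-IDF, components 2 to 30 of a singular value decomposition, a graph of 15 neighbours and Leiden clustering at resolution 0.6 (Python 3.11.15, numpy 2.4.6, scipy 1.17.1, pandas 2.3.3, scikit-learn 1.9.0, igraph 0.11.9, leidenalg 0.10.2). Clusters were named from counts within 2 kb of marker genes, 12 marker lists in all. No doublet caller was run. Barcodes above the 95th percentile of counts of their cluster were left out as an alternative. The scripts were tested on simulated data.

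The members, the marker lists and the 10 other gene lists were chosen with earlier results of these data known. Regions and genes were named by rule: the 8 members with most CPM per kb, the 5 highest and the 5 lowest by PDGFB-NLS over PDGFB-WT ratio, the 4 highest in each cluster class, the 4 promoter members with most counts, the 10 genes with most members and the 3 genes of each list with most members. Some items that the rule names are not reported here. Alternatives were the overlap that joins peaks, a peak minimum of 50 counts, the gene start window, the scale, the count and barcode minimum, capped counts, the cluster resolution and the peaks used to cluster.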

Additional observations from a re-analysis of the deposited data

Results flagged for a closer look

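At Cdkn1a, which encodes the cell cycle inhibitor p21, the fold of the member lay on opposite sides of 1 in the PDGFB libraries, with all 4 counting intervals including 1. Its fold in OPC-like over other barcodes was 0.291 in the PDGFB-NLS library (interval 0.00704 to 1.81) against 2.20 in the PDGFB-WT library (0.295 to 16.4). In microglia or macrophage-like over other barcodes it was 2.33 in the PDGFB-NLS library (0.916 to 5.93) against 0.430 in the PDGFB-WT library (0.00910 to 3.85). The region had 40 counts in PDGFB-NLS and 12 in PDGFB-WT.

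At Dusp6, a phosphatase that limits ERK signalling, the microglia or macrophage-like fold of the member was 0.481 in the PDGFB-NLS library (0.190 to 1.07) against 4.30 in the PDGFB-WT library (1.09 to 20.05), on 70 and 21 counts. There was 1 library in each group, so none of these differences was tested.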

How the results depend on the processing

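With peaks of at least 50 counts only, 1280 members were left, 8.98% of them at gene starts. That share was 8.14% with a window of 2000 bp, 4.29% with peaks within 500 bp joined and 4.43% for members over 500 bp from a Control peak. Genes with a member were 11.3% when 50 kb around gene starts was used. The median log2 ratio of PDGFB-NLS over PDGFB-WT and the share of members lower by over 2-fold were -1.03 and 52.6% over 500 bp from a Control peak, -1.29 and 66.7% with CPM over all own peaks, -0.45 and 25.4% at 100 counts, -0.95 and 46.8% with no minimum, and -1.10 and 55.4% with at least 1000 counts per barcode. With counts capped at 1 the median was -0.97. CPM over all own peaks moved the regions called in all 3 libraries as well, to a median of -0.38, against -0.09.

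The excess of PDGFB-WT over Control near members was 0.11 with 50 kb and 0.11 at 100 counts, against 0.18. The OPC-like fold in PDGFB-NLS was 3.47 over 500 bp from a Control peak, 3.04 with capped counts, 3.23 without the deepest barcodes of each cluster and 6.44 against microglia or macrophage-like barcodes alone. In PDGFB-WT it was 1.91, 1.79, 2.25 without unnamed clusters, 2.41 with at least 1000 counts per barcode and 4.51 against microglia or macrophage-like barcodes alone. Members over 2-fold in OPC-like barcodes of both libraries were 53.7% without unnamed clusters, 74.97% against microglia or macrophage-like barcodes alone and 59.8% with at least 1000 counts per barcode. That barcode minimum turned the OPC-like log2 fold in PDGFB-WT to 0.24 at Bub1b and 0.33 at Egr1, and the cause was not tested.

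Alternatives added after seeing the data were the distance to a Control peak, the 50 kb around gene starts and the unnamed clusters. The microglia or macrophage-like reference, the deepest barcodes and shared barcodes were also added then. None of the summary results changed direction under the alternatives run, although 31 of their values moved beyond the interval of the main value (or, for counts, by over 1.5 times) and 29 did not. The rule and the 7008951 counts of PDGFB-WT limit what the ratio of the PDGFB libraries can show, and Control has no counts in members. No paired analysis was possible because each group had 1 library.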

Other observations

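Members at immune and metabolic genes differed in the barcodes that carried them. At the interferon-induced genes Isg15, a ubiquitin-like protein, and Irf7, a transcription factor, the members were higher in OPC-like barcodes, by 3.77-fold and 2.24-fold in PDGFB-NLS and by 4.79-fold and 7.70-fold in PDGFB-WT. The Irf7 member had 104 counts in PDGFB-NLS and 27 in PDGFB-WT. The interval of its PDGFB-WT fold was 2.03 to 43.0. The Isg15 member had 311 counts in PDGFB-NLS and 54 in PDGFB-WT, 300 bp from a Control peak. At Oas2, a sensor of double-stranded RNA, the OPC-like folds were 3.03 for PDGFB-NLS and 1.30 for PDGFB-WT. Its folds in the pooled clusters were 2.47 for PDGFB-NLS and 2.82 for PDGFB-WT. The member near Hk2, a hexokinase, was higher in microglia or macrophage-like barcodes, by 8.26-fold (3.29 to 24.7) in PDGFB-NLS and 8.43-fold (3.36 to 25.2) in PDGFB-WT, with 59 counts in each library. At the p53 target Aen, a nuclease, the member was OPC-like high, with 7.81 for PDGFB-NLS and 3.08 for PDGFB-WT, 106 bp from a Control peak, and at Btg2, an antiproliferative factor, it was 4.27-fold and 1.92-fold higher in the pooled clusters 3 and 6 (PDGFB-NLS) and 3 and 4 (PDGFB-WT).

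Members were spread over all chromosomes but Y, which had none beside 11 regions called in all 3 libraries. Per 100 regions called in all 3 libraries, chromosome 13 had most members (8.28), then chromosome 12 (7.65), and chromosomes 7 and 11 had the fewest among the others (4.39 and 4.50). The median gap between neighbouring members was 427795 bp, and 101 gaps were under 10 kb. The densest 1 Mb window held 9 members on chromosome 11 between 107000001 and 108000000, which includes Cacng4. Windows with 7 included those of Nfia, Sox5 and Tcf7l2.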
